A study of Mus musculus with 5 samples.

Results

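Expression of 8 genes of the brain's small vessels was followed in the ventromedial hypothalamus (VMH) of C57Bl/6 mice after electroconvulsive seizures (ECS). They were chosen by name: the endothelial genes Cldn5, Slco1a4, Slco1c1 and Abcb1a, and the mural genes Rgs5, Pdgfrb, Vtn and Acta2. Of the 12393 genes with a probe set of their own on the array, these 8 had 15 probe sets. All 8 had at least 1 probe set bright enough to be kept, among 6658 genes in all. Isoflurane-anaesthetised mice received 1 shock or 7 shocks of 25 mA through ear clip electrodes, and brains were taken 2 h or 6 h after the shock. Sham mice were handled alike without a shock and taken at 2 h. There are thus 2 single-shock groups (2 h and 6 h), 2 groups given 7 shocks (2 h and 6 h), and 1 sham group. Each group is 1 array of laser-dissected tissue, with the RNA of 2 or 3 animals pooled. A repeat of the experiment on other animals, which the design text mentions, was not analysed here.

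The blood-brain barrier is formed by endothelial cells that seal their contacts with tight junctions and replace free leakage by selective carriers and efflux pumps. Pericytes sit on these capillaries inside the shared basement membrane, are recruited by endothelial PDGF-B through the receptor encoded by Pdgfrb, and help to keep the barrier closed. Smooth muscle cells wrap the arterioles and set their width. In the hypothalamus this barrier governs which hormones and nutrients reach neurons that control feeding.

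Values are MAS5 signals, which are brightness readings of a probe set on a linear scale, after a pseudocount of 1.2 was added and all arrays were brought to the same median over the kept probe sets. Before that step, the arrays were shifted from sham by -0.13 (1 shock, 2 h), 0.40 (1 shock, 6 h), 0.51 (7 shocks, 2 h) and 0.49 (7 shocks, 6 h) in log2. Without it, each difference from sham moves by that amount, so that differences smaller than the shift can change sign. Differences are log2 differences of these centred signals, so that 1 is a 2-fold difference, and a gene's difference is that of its brightest probe set. With 1 array per group there is no replicate, no error and no test of significance, and genes are called higher or lower at 2-fold by size alone. The order of the arrays for a gene is therefore given as measured, without a statement on which neighbours in that order would differ in other animals. One gauge of measuring error is the disagreement of probe sets of the same gene. Among 2451 genes with at least 2 kept probe sets, the brightest pair disagreed by a median of 0.44 to 0.49 (log2) over the 8 comparisons. They were at least 2-fold apart in 20.3% to 23.3% of the genes. Of the 6658 kept genes, 467 would fall below the brightness filter without their highest array, and none of the 8 is among them. A gene of that kind had to stand apart on that array, and its values are given below as a description. In bulk tissue, fewer vascular cells in the dissected piece and less RNA per cell cannot be told apart.

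The tissue was checked by its marker genes. The titles name the VMH, whereas a description field of the same samples names the PVN. The VMH factor Nr5a1 read 67.3 to 157.9 on the ECS arrays and 95.0 on sham, and 5 of 6 VMH markers were kept. Of 6 PVN markers 3 were kept. The vasopressin gene Avp read 8.22 after 1 shock at 2 h, 49.5 after 1 shock at 6 h, 46.8 after 7 shocks at 2 h and 30.3 after 7 shocks at 6 h, against 9.89 in sham. Among genes that define the vascular cells, many were too dim to be kept. This held for 15 of 22 endothelial genes with a probe set, 10 of 16 pericyte genes and 9 of 13 smooth muscle genes. Over the 5 arrays, Cdh5 (VE-cadherin) had deposited signals of 1.6 to 18.8, the VEGF receptor gene Kdr 1.3 to 13.5 and the smooth muscle gene Tagln 5.4 to 28.3. Pecam1 and Myh11, further defining genes of endothelium and smooth muscle, were also below the filter.

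At most 3 of the 8 genes stood 2-fold apart in any comparison, with 4 such differences for Abcb1a and for Vtn, 3 for Slco1c1 and for Cldn5, 2 for Slco1a4, 1 for Acta2 and 0 for Rgs5 and Pdgfrb. After 1 shock at 2 h, 0 were higher than sham and 3 lower (Slco1a4, Slco1c1 and Abcb1a), where 6.22% of all 6658 genes were higher and 6.91% lower (13.1% in either direction). After 7 shocks at 2 h, 1 was higher (Vtn) and 2 were lower (Slco1a4 and Abcb1a), where 7.06% of all genes were higher and 6.92% lower (14.0% in either direction). The medians of the 8 genes in these comparisons were -0.19 and -0.51, against 0.00 over all genes in both. After 1 shock at 6 h, 1 was higher than the 2 h sham (Cldn5) and 2 were lower (Slco1c1 and Abcb1a), where 7.24% of all genes were higher and 7.75% lower (15.0% in either direction), with medians of -0.30 for the 8 and 0.07 for all. After 7 shocks at 6 h, 1 was higher (Vtn) and 1 lower (Slco1c1), where 7.39% of all genes were higher and 7.28% lower (14.7% in either direction), with medians of -0.12 and 0.02.

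Between 7 shocks and 1 shock at 2 h, none of the 8 passed 2-fold in either direction, where 7.66% of all genes were higher and 7.10% lower (14.8% in either direction) after 7 shocks. At 6 h, 2 were higher after 7 shocks than after 1 shock (Vtn and Abcb1a) and 1 was lower (Cldn5), where 8.61% of all genes were higher and 8.97% lower (17.6% in either direction). Between 6 h and 2 h after 1 shock, 1 was higher (Cldn5) and 2 were lower (Vtn and Acta2), where 8.20% of all genes were higher and 7.87% lower (16.1% in either direction). Between 6 h and 2 h after 7 shocks none passed 2-fold, where 6.85% of all genes were higher and 6.89% lower (13.7% in either direction), and 6 of the 8 were above 0 with a median of 0.52. The 8 genes therefore gave 17 differences past 2-fold out of 64. Of all genes, 13.1% to 17.6% passed 2-fold in either direction, depending on the comparison. The 8 comparisons reuse the same 5 arrays, so the 64 differences are not separate observations. Without rescaling the arrays, the pair of lower genes after 7 shocks at 2 h became 1, the lower gene after 7 shocks at 6 h was lost, and 2 genes passed 2-fold between 7 shocks and 1 shock at 2 h. The 1 higher and 2 lower genes between 6 h and 2 h after 1 shock became 3 higher and 0 lower. Among all called genes, the higher ones made 47.4% to 51.9% over the 8 comparisons with rescaling and 33.8% to 94.0% without it.

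**Figure D1:**
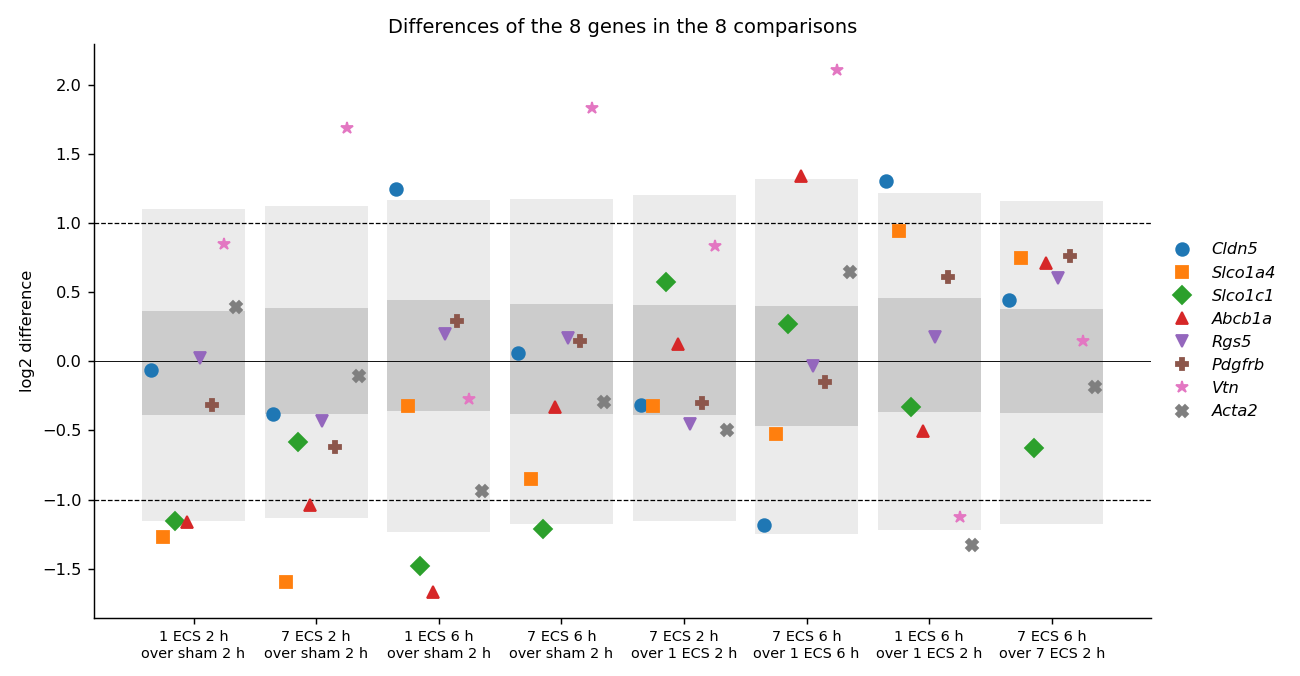
Log2 differences of the 8 genes in the 8 comparisons, with dashed lines at 2-fold. Light bars span the 5th to 95th percentile of all 6658 genes and dark bars the 25th to 75th; Vtn lay above the light bar at 1.68, 1.83 and 2.11 for the 7-shock arrays over sham and for 7 shocks over 1 shock at 6 h.

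Cldn5 encodes claudin-5, the dominant tight junction strand protein of brain endothelium. Its single probe set read 39.0 after 1 shock at 2 h, 96.4 after 1 shock at 6 h, 31.3 after 7 shocks at 2 h and 42.5 after 7 shocks at 6 h, against 40.8 in sham. One array, that of 1 shock at 6 h, stood above the other 4, which lay close together. Its log2 difference from sham was 1.24, against the 2 h sham that is not matched in time. Relative to 1 shock at 2 h it was 1.31, and 7 shocks at 6 h lay at -1.18 relative to 1 shock at 6 h. After 1 shock at 2 h and 7 shocks at 2 h, the time-matched arrays, the difference from sham was -0.06 and -0.38.

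The angiopoietin receptor gene Tek, also listed for vessel identity, would fall below the brightness filter without that same array. Its deposited signal averaged 14.9 on the other 4 arrays, so its high value there is no support for that of Cldn5. It read 11 after 1 shock at 2 h, 93.6 after 1 shock at 6 h, 12.5 after 7 shocks at 2 h and 22.8 after 7 shocks at 6 h, against 17.0 in sham. The difference of 1 shock at 6 h from sham was 2.46. Other junction genes did not share the pattern: the scaffold Tjp1 (ZO-1) read 107.5 on that array against 234.6 in sham, a difference of -1.13, while Jam2 stood at 0.37 and the catenin Ctnnb1 at -0.01. Of 13 junction genes 4 were kept, and Ocln, Cdh5, Esam, Marveld2, F11r and Lsr were below the filter. The other kept probe sets gave 0.54 for Jam2, and -0.60 and -2.26 for Ctnnb1. Of the 24 endothelial identity genes 7 were kept. Without Tek, 1 of the other 6, Cldn5 itself, was at least 2-fold above sham after 1 shock at 6 h and 0 were below. Over all genes 7.24% were above and 7.75% below. The median of the 6 was 0.05, against 0.07 over all genes. Besides Cldn5, the 6 were Egfl7 (0.53), Ramp2 (-0.20), Itm2a (-0.08), Pltp (0.19) and Slco1a4 (-0.33). Second kept probe sets gave -1.63 for Itm2a and 1.41 for Pltp, so that both genes depend on the probe set. Between 6 h and 2 h after 1 shock, Cldn5 and Itm2a (1.12) of these 6 passed 2-fold upward and 0 downward. The corresponding shares of the 6658 kept genes in this comparison were 8.20% upward and 7.87% downward. The second Itm2a probe set stood at -0.30.

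**Figure D2:**
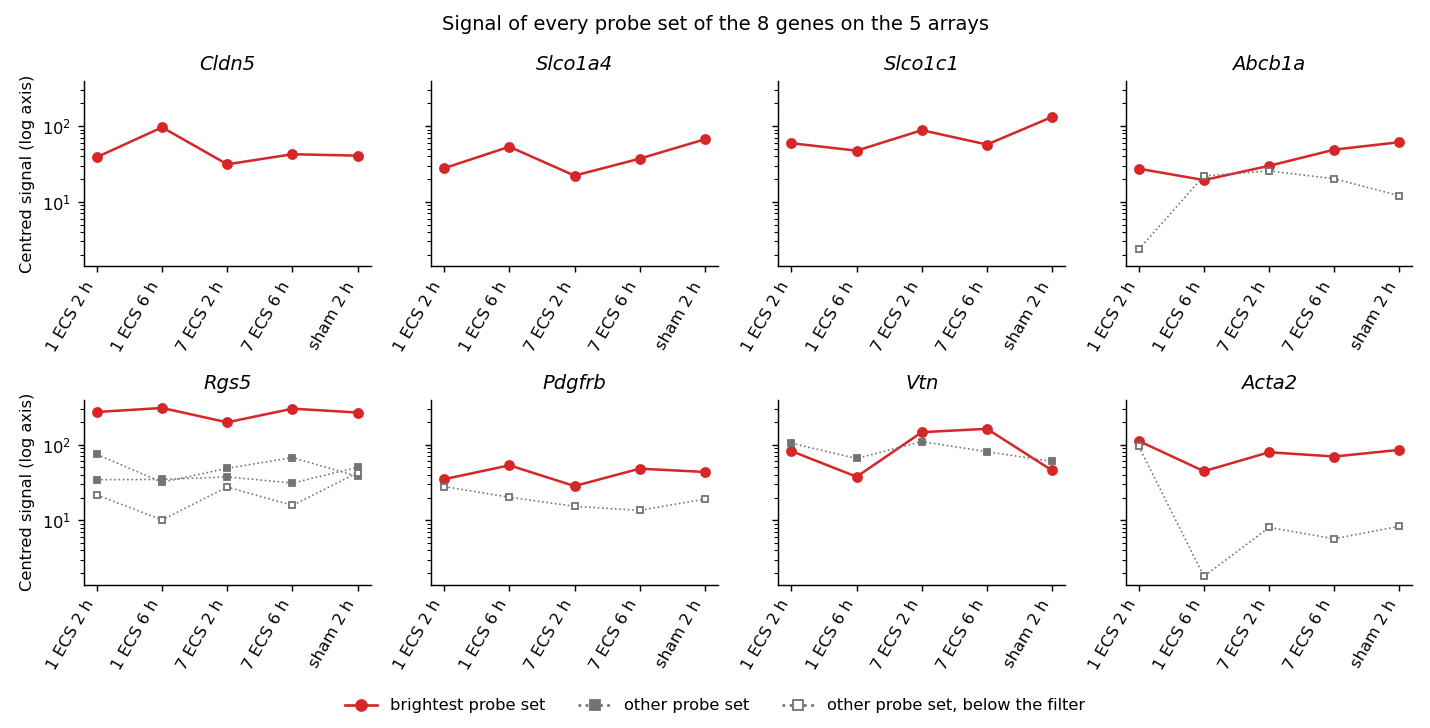
Centred signal (log axis) of all 15 probe sets of the 8 genes on the 5 arrays. Red circles are each gene's brightest probe set, grey squares its other probe sets, open where they fell below the brightness filter, and lines only join the values of 1 probe set. Slco1a4, Slco1c1 and Abcb1a read highest on the sham array (67.0, 132.4 and 61.4), and Cldn5 on that of 1 shock at 6 h (96.4). In deposited signal, Slco1a4 was higher after 1 shock at 6 h, and Abcb1a after 7 shocks at 6 h, than in sham.

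After rescaling, the 3 carriers and pumps among the members had their highest reading on the sham array. Before it, this held for Slco1c1 only. The deposited signal of Slco1a4 was 57.9 after 1 shock at 6 h against 55.0 in sham. That of the brightest Abcb1a probe set was 56.3 after 7 shocks at 6 h against 50.3 in sham. Slco1a4 encodes the organic anion transporter Oatp1a4 of the brain capillary wall. It read 27.8 after 1 shock at 2 h, 53.5 after 1 shock at 6 h, 22.2 after 7 shocks at 2 h and 37.2 after 7 shocks at 6 h, against 67.0 in sham. Both 2 h arrays were the lowest, at -1.27 after 1 shock and -1.60 after 7 shocks, and the 6 h arrays were nearer to sham, at -0.33 and -0.85. Between the times, 6 h over 2 h stood at 0.94 after 1 shock and 0.75 after 7 shocks, both short of 2-fold. On the arrays of 1 shock at 2 h and 7 shocks at 2 h its deposited signal (20.1 and 25.3) was below the median of the array's gene probe sets.

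Slco1c1 encodes Oatp1c1, which carries thyroxine into the brain and in the mouse is made by both capillary endothelium and astrocytes. Its single probe set read 59.5 after 1 shock at 2 h, 47.4 after 1 shock at 6 h, 88.4 after 7 shocks at 2 h and 57.1 after 7 shocks at 6 h, against 132.4 in sham. The 4 ECS arrays all lay below sham, with 7 shocks at 2 h the nearest. The differences from sham were -1.15, -1.48, -0.58 and -1.21 in that order. All 10 listed astrocyte markers were kept, and 2 were at least 2-fold lower than sham after 1 shock at 6 h, as were 7.75% of all genes. None was 2-fold from sham on the other ECS arrays, where 13.1% to 14.7% of all genes were in either direction. The summed signal of the 10 markers was 4671 to 5238 on the ECS arrays and 4888 on sham. Their median difference from sham lay between -0.24 and 0.01.

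Abcb1a encodes a mouse P-glycoprotein, the pump that returns many drugs to the blood. In rodents, seizures are known to alter its level through glutamate and prostaglandin signals. Its brightest probe set read 27.4 after 1 shock at 2 h, 19.4 after 1 shock at 6 h, 29.9 after 7 shocks at 2 h and 48.9 after 7 shocks at 6 h, against 61.4 in sham. Sham and 7 shocks at 6 h were the higher arrays, and the differences from sham were -1.16, -1.66, -1.04 and -0.33 in that order. Relative to 1 shock at 6 h, 7 shocks at 6 h stood at 1.34. The other probe set was below the filter and did not follow: it read 2.35, 22.0, 25.6 and 20.2 on the ECS arrays in the same order, against 12 in sham. For 7 shocks at 2 h the other probe set was thus at 1.09 where the brightest was at -1.04. In 2 of 8 comparisons both had the same sign, and all 8 pairs were at least 1 (log2) apart, so the direction of Abcb1a depends on the probe set. Those 2 comparisons both use the array of 1 shock at 2 h, where the dimmer set had a deposited signal of 0.6. Of the 7 genes listed for the seizure signal to P-glycoprotein 5 had a probe set, among them the prostaglandin synthase gene Ptgs2, and none was bright enough to be kept.

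The wider group of barrier carriers and pumps gave 11 kept genes of 18 listed. Relative to sham, the number at least 2-fold lower was 4 after 1 shock at 2 h, 4 after 7 shocks at 2 h, 4 after 1 shock at 6 h and 3 after 7 shocks at 6 h, and the number higher was 0 in each. Of all genes, 6.91%, 6.92%, 7.75% and 7.28% were at least 2-fold lower in these comparisons. The medians were -0.78, -0.56, -0.85 and -0.36 in that order, against 0.00, 0.00, 0.07 and 0.02 over all genes. Without rescaling the arrays the medians were -0.91, -0.04, -0.46 and 0.12, the last of them on the other side of 0. With the mean of each gene's kept probe sets they were nearer to 0, at -0.28, -0.15, -0.34 and -0.33. These 4 comparisons share 1 sham array, so they are not 4 separate observations. Without the 3 members, the remaining 8 genes had medians of -0.40, -0.17, -0.77 and -0.27, with 1, 2, 2 and 2 of them at least 2-fold lower. Slc22a8 and Slc7a5 would fall below the brightness filter without their highest array, and without both genes the lower counts were 3, 3, 3 and 2 of 9, of which members made 3, 2, 2 and 1. The organic anion carrier Slc22a8 (Oat3), which would fall below the filter without the sham array, read 13.6 after 1 shock at 2 h, 36.8 after 1 shock at 6 h, 22.3 after 7 shocks at 2 h and 13.3 after 7 shocks at 6 h, against 80.4 in sham. Its dimmer probe set, below the filter, differed from sham by -0.53, -1.59, 0.69 and -1.11 in that order. The transferrin receptor gene Tfrc, which imports iron, read 186.0 to 275.5 on the ECS arrays against 397.1 in sham on its brightest probe set. A second Tfrc probe set ran the other way, at 126.6 to 217.2 against 85.1 in sham. The taurine carrier Slc6a6 was at -1.29 after 1 shock at 6 h and -1.41 after 7 shocks at 6 h, while its 2 dim probe sets, below the filter, gave 1.28 and -1.16, and 2.23 and 1.65.

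The glucose carrier gene Slc2a1 (GLUT1) did not go with the lower carriers. It read 831.1 after 1 shock at 2 h, 578.9 after 1 shock at 6 h, 537.1 after 7 shocks at 2 h and 527.9 after 7 shocks at 6 h, against 487.2 in sham. The differences were 0.77, 0.25, 0.14 and 0.12 in that order, and on the array of 1 shock at 2 h its other probe sets gave 0.66 and 0.62. Between 7 shocks and 1 shock the group held no common direction, with medians of 0.09 at 2 h and 0.16 at 6 h. Between 6 h and 2 h the medians were 0.02 after 1 shock and -0.02 after 7 shocks. Relative to the median of the 4 ECS arrays, sham was higher by 1.06 for Slco1a4, 1.18 for Slco1c1 and 1.10 for Abcb1a. For Gapdh, the brightness of the 3' over the 5' control probe sets was 8.77 and 5.37 on the single-shock arrays (2 h and 6 h) and 5.88 and 5.55 on the 7-shock arrays, against 6.67 in sham. The same ratio for actin was 0.89 and 1.10 on the single-shock arrays and 0.78 and 0.59 on the 7-shock arrays, against 0.80 in sham, and it ordered the arrays differently. The RNA was amplified before it was hybridised, so these ratios do not read RNA integrity alone. The part of RNA integrity or of the amplification in these differences was not tested.

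**Figure D3:**
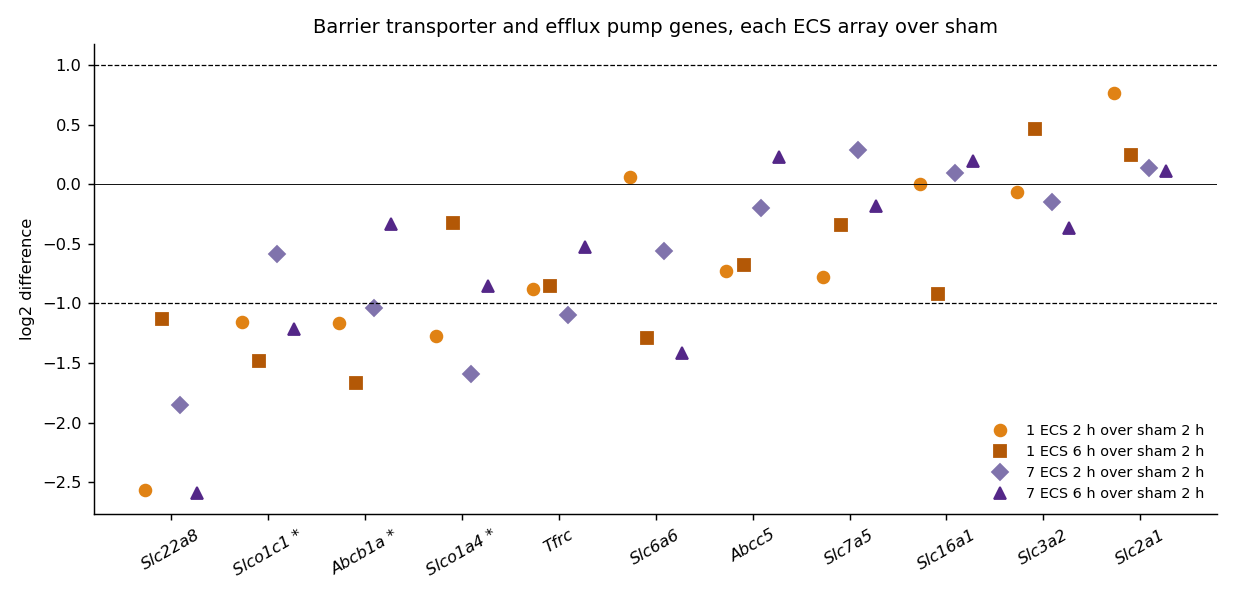
Log2 difference of each ECS array from sham for the 11 kept carrier and pump genes, ordered by their mean difference, with asterisks on Slco1a4, Slco1c1 and Abcb1a and dashed lines at 2-fold. All 4 differences lay below 0 for Slc22a8, Slco1c1, Abcb1a, Slco1a4 and Tfrc, and above 0 for Slc2a1; all share the same sham array, and without rescaling those of the 7-shock arrays and of 1 shock at 6 h lie 0.40 to 0.51 higher.

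The sequences around the starts of Slco1a4 and Slco1c1, the carriers furthest below sham at 2 h and at 6 h among the single-probe members, and of Vtn, the member furthest above sham, are shown so that the letters searched for motifs can be seen. They are RefSeq promoters of build GRCm38.p6, 250 bases before to 50 after the annotated gene start, and a match to the TATA box (TATAAA, both strands) is in capitals.
Slco1a4, chr6:141856171-141856470, minus strand: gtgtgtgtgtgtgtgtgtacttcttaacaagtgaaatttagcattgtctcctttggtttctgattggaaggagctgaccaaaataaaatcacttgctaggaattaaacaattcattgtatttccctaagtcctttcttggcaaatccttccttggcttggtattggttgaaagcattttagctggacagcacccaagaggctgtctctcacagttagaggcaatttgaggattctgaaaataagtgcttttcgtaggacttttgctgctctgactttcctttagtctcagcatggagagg
Slco1c1, chr6:141524104-141524403, plus strand: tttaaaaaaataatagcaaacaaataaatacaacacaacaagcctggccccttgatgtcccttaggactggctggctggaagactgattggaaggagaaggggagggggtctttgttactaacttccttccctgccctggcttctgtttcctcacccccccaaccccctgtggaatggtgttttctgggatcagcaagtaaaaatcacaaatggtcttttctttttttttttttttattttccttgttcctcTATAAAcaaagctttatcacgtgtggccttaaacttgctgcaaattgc
Vtn, chr11:78498870-78499169, plus strand: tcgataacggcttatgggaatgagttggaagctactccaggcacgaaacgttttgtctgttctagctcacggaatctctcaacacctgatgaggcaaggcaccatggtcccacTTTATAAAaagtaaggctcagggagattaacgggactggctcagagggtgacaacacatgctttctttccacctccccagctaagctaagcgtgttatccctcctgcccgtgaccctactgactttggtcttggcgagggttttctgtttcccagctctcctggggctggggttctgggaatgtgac
Of the members, 7 had their promoter searched for motifs, and that of Pdgfrb was left out of the search. The motifs were those of factors that seizures are known to induce or activate: AP-1 (TGANTCA, bound by Fos and Jun), the cyclic AMP response element (TGACGTCA), the Egr site (GCGNGGGCG) and the strict CArG box of serum response factor, with all 6 inner letters A or T, on both strands. None of the 7 held a full match in this window. A search allowing 1 inner letter to be C or G, added after the strict one, found such CArG-like letters in 8.5% of all promoters and in 2 of the 7. Acta2 held ccctatatgg from 84 to 75 and ccttgtttgg from 34 to 25 bases before its start, and Slco1a4 held cctttcttgg from 120 to 111 bases before its start. Over all 32851 promoters of that length, 7.81% held the AP-1 letters, 1.79% the cyclic AMP element, 5.55% the Egr site and 1.63% a strict CArG box. TATAAA was found in 13.6% of all promoters and in 2 of the 7, Slco1c1 just after its start, and Vtn 137 to 130 bases before it, where matches on both strands overlap. The CArG box is rich in A and T and can overlap TATAAA. A match is a description of letters, and whether any of them is bound was not tested here. A missing strict match does not mean that a factor has no site in the window.

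Among the mural members, Rgs5 was the steadiest. It encodes a regulator that shuts off G-protein signals and is a standard pericyte marker. Its brightest probe set read 270.2 after 1 shock at 2 h, 305.6 after 1 shock at 6 h, 197.3 after 7 shocks at 2 h and 298.8 after 7 shocks at 6 h, against 266.0 in sham. The lowest and highest arrays were 1.55-fold apart, and no comparison passed 2-fold, the differences from sham being 0.02, 0.20, -0.43 and 0.17 in that order. The 3 dimmer probe sets varied more and did not share its order. One of them, the shared-sequence set with the suffix _s_at, read 74.3, 31.8, 48.7 and 67.4 on the ECS arrays against 38 in sham, and another read 31.0 to 37.5 against 50.2. Of 24 pairs of a dimmer set with the brightest, over 8 comparisons, 8 had the same sign.

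Pdgfrb encodes the PDGF-B receptor by which pericytes are held to capillaries. It read 34.9 after 1 shock at 2 h, 53.3 after 1 shock at 6 h, 28.4 after 7 shocks at 2 h and 48.1 after 7 shocks at 6 h, against 43.5 in sham. Both 6 h arrays read above sham and both 2 h arrays below it, by less than 2-fold in each case (-0.32, 0.29, -0.62 and 0.15 in the order given). The 6 h arrays over the 2 h arrays stood at 0.61 after 1 shock and 0.76 after 7 shocks. Its second probe set was below the filter and did not repeat this, at -0.47 and -0.18 for the same comparisons. Over the 5 arrays Pdgfrb and Rgs5 had the closest profiles of any pair of members, with a Pearson r of 0.91, which describes 5 arrays that share their normalization.

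Vtn encodes vitronectin, an adhesive glycoprotein of plasma and matrix that in the mouse brain is made mainly by pericytes and binds integrins. It had the widest range of the 8 genes on their brightest probe sets. It read 82.0 after 1 shock at 2 h, 37.6 after 1 shock at 6 h, 146.2 after 7 shocks at 2 h and 161.9 after 7 shocks at 6 h, against 45.5 in sham. Both 7-shock arrays were the highest, and 1 shock at 6 h and sham were the lowest. The differences from sham were 0.85, -0.27, 1.68 and 1.83 in that order. After 7 shocks over 1 shock it stood at 0.83 at 2 h and 2.11 at 6 h, and at 6 h over 2 h it stood at -1.12 after 1 shock and 0.15 after 7 shocks.

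The second Vtn probe set, also kept, had the same direction in 6 of the 8 comparisons and smaller differences in all 8 but 1. It read 104.3 after 1 shock at 2 h, 65.7 after 1 shock at 6 h, 109.7 after 7 shocks at 2 h and 80.7 after 7 shocks at 6 h, against 59.9 in sham. The differences from sham were 0.80, 0.13, 0.87 and 0.43, so this probe set had no difference past 2-fold, and the 7 shocks at 6 h array lay 0.30 over 1 shock at 6 h. Of its 8 listed partners, Vtn included, 4 were kept. The integrin chain Itgb5 read 57.5, 41.6, 35.2 and 27 on the ECS arrays in the order given, against 16.8 in sham, and Itgb1 read 22.0, 23.7, 56.7 and 65.9 against 68.3. The chain Itgav, which pairs with Itgb5 in a vitronectin receptor, stood at 0.12, -0.47, -0.41 and 0.03 relative to sham in the same order. A dim probe set of Itgb1 holds a signal of 0 on at least 1 array, and the dimmer sets of all 3 genes differ from these values.

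Of 17 listed pericyte genes, Vtn, Rgs5 and Pdgfrb included, 6 were kept. The proteoglycan gene Cspg4 would fall below the filter without the array of 7 shocks at 6 h, where it read 55.4 against 26.1 in sham. Of the other 5, Vtn and the guanylate cyclase subunit Gucy1a1 were at least 2-fold above sham on that array and 0 were below. Over all genes 7.39% were above and 7.28% below. The median of the 5 was 0.17 against 0.02 over all genes. Gucy1a1 read 331.7 against 141.7 in sham (1.23), but 181.5 against 127.4 (0.51) on its second kept probe set. Cspg4 is also made by oligodendrocyte precursors and Gucy1a1 by neurons. After 7 shocks at 2 h, Vtn alone of the 6 passed 2-fold, and after 1 shock at 2 h or 6 h none did. In these 3 comparisons 14.0%, 13.1% and 15.0% of all genes passed 2-fold in either direction. Among the 3 kept PVN markers, 2 were at least 2-fold above sham on both 7-shock arrays, as were 7.06% (2 h) and 7.39% (6 h) of all genes. The medians of the 3 were 1.68 at 2 h and 1.61 at 6 h. The 2 markers were Avp and the oxytocin gene Oxt, both of which would fall below the filter without the array of 7 shocks at 2 h. Oxt read 52.7 at 2 h and 52.1 at 6 h after 7 shocks against 16.4 in sham. After 1 shock at 6 h, 1 of the 3 PVN markers, Avp (2.32), was at least 2-fold above sham and 0 were below. Over all genes 7.24% were above and 7.75% below. On that array the brightest Vtn probe set stood at -0.27 relative to sham. The part of PVN tissue in the Vtn difference was not tested. Soluble guanylate cyclase needs a second subunit, and its gene Gucy1b1 stood at -0.19 after 7 shocks at 6 h.

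Acta2 encodes smooth muscle actin, which marks arteriolar smooth muscle and some pericytes. Its brightest probe set, an _s_at set whose probes may also detect related transcripts, read 111.9 after 1 shock at 2 h, 44.5 after 1 shock at 6 h, 79.4 after 7 shocks at 2 h and 69.6 after 7 shocks at 6 h, against 85.3 in sham. The single-shock arrays were the highest at 2 h and the lowest at 6 h. The 6 h over 2 h difference after 1 shock was -1.33, and the differences from sham were 0.39, -0.94, -0.10 and -0.29 in the order given. The second probe set, below the filter, had the same sign in 8 of 8 comparisons and a larger size in all but that of 7 shocks at 2 h over sham (-0.06). It read 95.1 after 1 shock at 2 h, 1.81 after 1 shock at 6 h, 8.03 after 7 shocks at 2 h and 5.70 after 7 shocks at 6 h, against 8.34 in sham. On 4 of the 5 arrays that probe set was below the median of the array, and its 6 h over 2 h difference of -5.72 after 1 shock rests on a deposited signal of 0.80.

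**Figure D4:**
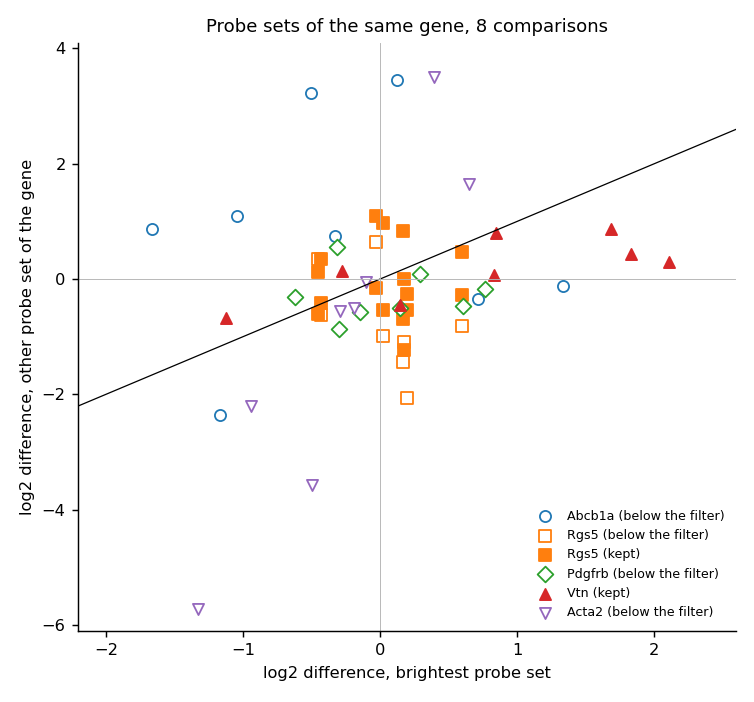
Log2 difference of a gene's other probe sets against that of its brightest, for the 5 members with several probe sets and the 8 comparisons (56 points), with a line of equality; filled symbols are kept probe sets and open ones are below the filter. The sign was the same in 28 of the 56, with Acta2 at 8 of 8, Vtn at 6 of 8 and Abcb1a at 2 of 8.

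Smooth muscle genes as a list gave 4 kept of 13. The tropomyosin gene Tpm2, which stabilises actin filaments, was at least 2-fold above sham in all 4 comparisons with it. It read 69.8 after 1 shock at 2 h, 88.9 after 1 shock at 6 h, 55.0 after 7 shocks at 2 h and 96.8 after 7 shocks at 6 h, against 26.8 in sham. Both other kept probe sets were also above sham on all ECS arrays, the nearer by 1.01 to 2.04 and the dimmer by at least 0.29. A further set, below the filter, was above sham at 0.83 after 1 shock at 2 h and below it on the other arrays. Tpm1 stood at -0.26 to 0.30 on its brightest probe set, but its second kept set was above sham on all ECS arrays, by 0.40 after 1 shock at 2 h, 0.71 on the next 2 arrays and 1.09 after 7 shocks at 6 h. The myosin kinase gene Mylk stood at -0.59 to 0.57, and Tagln, Myh11, Cnn1, Myl9, Smtn, Lmod1, Mustn1, Pln and Des were below the filter. Serum response factor, a regulator of smooth muscle actin genes that is also an activity-induced gene in neurons, had readings for Srf of 449.4 after 1 shock at 2 h, 106.8 after 1 shock at 6 h, 350.0 after 7 shocks at 2 h and 266.1 after 7 shocks at 6 h, against 211.1 in sham. For 1 shock, Srf at 6 h over 2 h stood at -2.07. The cytoplasmic actins Actb and Actg1 differed from sham by at most 0.25 in size in the 4 comparisons.

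Signals that pass between endothelium and mural cells were mostly dim. Of 18 listed genes 7 were kept, and the ligand gene Pdgfb was below the filter together with Angpt1, Angpt2, Tgfb1, Jag1 and Dll4. Relative to sham the list medians were -0.32 after 1 shock at 2 h, -0.13 after 1 shock at 6 h, -0.38 after 7 shocks at 2 h and 0.15 after 7 shocks at 6 h, with at most 1 gene past 2-fold in each direction. Over all genes 6.22% to 7.39% were at least 2-fold higher and 6.91% to 7.75% lower. Tek is one of the 7, and without it the median after 7 shocks at 6 h was -0.01. The receptor gene S1pr1, which steadies endothelial junctions and is also made by astrocytes, read 78.6 after 1 shock at 6 h against 181.2 in sham. Notch1 read 20.2 after 1 shock at 2 h against 57.8 in sham. The TGF-beta receptor gene Tgfbr1 was at -1.32 after 7 shocks at 2 h, and at -1.59 on its other kept probe set.

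Wnt signalling from neural cells maintains the barrier. Of 16 genes listed for it 5 were kept, and the endothelial receptor gene Fzd4 and its coactivator gene Adgra2 were not among them. The feedback gene Axin2 read 34.3 after 1 shock at 2 h, 41.7 after 1 shock at 6 h, 49.9 after 7 shocks at 2 h and 28.8 after 7 shocks at 6 h, against 112.9 in sham, but its other probe set read higher than sham on both 2 h arrays (1.43 and 1.69), and stood at 0.04 and -2.90 at 6 h. The coreceptor gene Lrp6 read 276.3 after 7 shocks at 2 h and 168.2 after 7 shocks at 6 h, against 76.3 in sham, whereas its dim probe set, below the filter, stood at -1.13 and -2.69. Of 15 genes for permeability and endothelial activation, Vegfa and Vcam1 were kept. Vegfa, the vessel growth and permeability factor, read 13.7 after 1 shock at 6 h against 65.4 in sham, while its other probe set stood at -0.21. Thyroid hormone genes gave 6 kept of 11: besides Slco1c1, the receptor gene Thrb read 22.2 to 33.6 on the ECS arrays against 64.1 in sham, without which it would fall below the filter, and the deiodinase gene Dio2 read 51.2 after 1 shock at 6 h against 131.1 in sham.

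Markers of the other cells the dissected piece could hold were set beside these results. The meningeal and fibroblast list gave 3 kept of 8, with a summed signal of 241.6 after 1 shock at 2 h, 73.5 after 1 shock at 6 h, 210.7 after 7 shocks at 2 h and 156.1 after 7 shocks at 6 h, against 138.5 in sham. Its 3 kept genes, Col1a1, Col1a2 and Pdgfra, were each lowest after 1 shock at 6 h. The brightest probe sets of Slco1c1, Abcb1a, Acta2 and Vtn were also lowest on that array. The second Vtn probe set was lowest in sham, at 59.9 against 65.7. Before rescaling, the brightest Vtn set also read lower in sham (37.0 against 40.4). Slco1c1 and Abcb1a then read lower after 1 shock at 2 h (44.4 against 51.2, and 19.8 against 20.2). Col1a1, which is part of the sum, would fall below the filter without the array of 7 shocks at 6 h. Its deposited signal was 72.9 there and averaged 25.35 on the other 4 arrays. Choroid plexus genes were all below the filter or without a probe set. The red cell list kept 1 gene, Hbb-b2, at 125.3 to 281.9 on the ECS arrays and 208.1 in sham, the lowest value being that of 7 shocks at 6 h. Of the fenestrated vessel and tanycyte list 3 of 6 were kept, and Plvap, which marks fenestrated endothelium, read 21.0 to 41.6 against 31.3. Microglia kept 7 of 10 genes, oligodendrocytes 6 of 8 and neurons 10 of 10. The summed signal on the ECS arrays was 1632 to 1752 for microglia, 5579 to 6236 for oligodendrocytes and 15052 to 16959 for neurons, against 1770, 5413 and 14142 in sham. The microglial sum includes P2ry12, which would fall below the filter without the sham array. Its deposited signal was 56.5 in sham and averaged 25.6 on the other 4 arrays. The part of these cells in the vessel gene differences was not tested.

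Genes with profiles most like each member were named by Pearson r of the log2 values over the 5 arrays, among 6650 other kept genes. For Cldn5 these were Fam120a, Rplp2 and Eif3d, for Slco1a4 Scrg1, Thap11 and Nt5c3b, and for Slco1c1 Ss18l2, Zfp362 and B4galt6. For Abcb1a they were Stk19, Zfp764 and Mindy3, for Rgs5 Gtpbp6, Plxnc1 and Ndufa3, and for Pdgfrb Rnf126, Senp3 and Fuca2. Vtn was most like Lmo7, Myo5a and Ptprm, and Acta2 most like Taf1c, Purb and Phkg2. All these r values were 0.988 to 0.999, and 76 to 176 genes reached 0.9 for each member, so a high r is common with 5 arrays. None of the 24 names came from the vessel lists.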

How the data were processed

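RNA of laser-dissected mouse VMH was amplified from 2 ng of total RNA and hybridised to Affymetrix arrays, 1 per group. The deposited values are MAS5 intensity signals per probe set, per the submitters' processing notes, on a linear scale. The sources used here state no MAS5 version, target intensity or detection call. Of 22690 probe sets, 64 controls, 691 with several gene symbols and 1555 without one in the annotation used were left out, leaving 20380. Signals were taken to log2 with a pseudocount of 1.2 (their 10th percentile). The brighter 50% of probe sets, with a mean signal of at least 28.5, were kept, 10390 in all. Arrays were then brought to one median over these, and the brightest kept probe set stood for its gene. The number of arrays limits the precision.

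The members, the 22 gene lists and the comparisons were chosen with earlier results of these data known. Genes named are the members; of other lists, those past 2-fold or among the 3 furthest from 0, and their dim defining markers, added after the values were seen; and the 3 most similar genes per member. Scripts were tested on simulated data. Python 3.11.15, numpy 2.4.6, pandas 2.3.3 and matplotlib 3.10.9 were used. Alternatives were no rescaling, quantile normalization, a pseudocount of 6.1 (the 25th percentile), no filter, the top 25%, the mean of a gene's probe sets, and leaving out _s_at and _x_at sets. Leaving out list genes that fall below the filter without their highest array, and the looser CArG search, were added after seeing the data.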

Additional observations from a re-analysis of the deposited data

How the results depend on the processing

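With 1 array per group nothing could be left out or paired. No paired analysis was possible because each group has 1 array and the result comes from no test. Of the 17 member differences past 2-fold, 17 kept their sign under every alternative that measured them and 13 also stayed past 2-fold. The dimmer Abcb1a probe set, below the filter, gave the gene's value in no alternative, so these could not test its direction. It had the opposite sign for 7 shocks at 2 h (1.09) and 1 shock at 6 h (0.87) over sham. The same held for 7 shocks over 1 shock at 6 h (-0.13), and for 1 shock at 2 h over sham it had the same sign (-2.36). That last value rests on a deposited signal of 0.6 after 1 shock at 2 h. Without rescaling, the count of members past 2-fold was 1 for 7 shocks at 6 h over sham (2 with rescaling), and it was 2 for 7 shocks over 1 shock at 2 h (0 with rescaling). All genes then shifted from sham by a median of -0.13 to 0.51, and the share of higher genes among those called was 89.8% for 7 shocks at 2 h, 82.1% for 1 shock at 6 h and 87.8% for 7 shocks at 6 h, and 33.8% for 1 shock at 2 h. It was 94.0% and 59.0% for 7 shocks over 1 shock at 2 h and 6 h, and 89.2% for 6 h over 2 h after 1 shock, against 47.4% to 51.9% with rescaling. The count of all genes past 2-fold was 1517 for 7 shocks at 2 h over sham (931 with rescaling), 1554 for 7 shocks at 6 h (977), 1942 for 7 shocks over 1 shock at 2 h (983) and 1820 for 6 h over 2 h after 1 shock (1070). Without a filter these counts were 3081 to 3718 over the 8 comparisons, and with the top 25% they were 189 to 318, against 874 to 1170. The carrier list median for 7 shocks at 6 h over sham was 0.12 without rescaling, against -0.36 with it, and lay below 0 in all other settings. For 1 shock at 2 h it was -0.28 with the mean of probe sets, -0.38 without a filter and -0.42 with the top 25%, against -0.78. With the top 25% of probe sets, Rgs5 alone of the members was bright enough, and the count was 0 in all 8 comparisons by construction. Other alternatives left every count of members within 1.5 times. Abcb1a after 7 shocks at 2 h was -0.96 with the larger pseudocount, -0.95 without a filter and -0.53 without rescaling. Vtn at 6 h over 2 h after 1 shock was -0.90 as the mean of its probe sets and -0.60 without rescaling. Without rescaling, Slco1c1 was -0.73 for 7 shocks at 6 h over sham, and Acta2 was -0.80 for 6 h over 2 h after 1 shock, with no value once _s_at sets were left out. For the differences that rescaling or a filter moved, no further cause was tested.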

Other observations

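Vimentin, the intermediate filament of tanycytes, reactive astrocytes and vessel cells, was at least 2-fold above sham on 3 of the 4 ECS arrays. Vim read 172.4 after 1 shock at 2 h, 353.6 after 1 shock at 6 h, 294.7 after 7 shocks at 2 h and 313.2 after 7 shocks at 6 h, against 145.9 in sham. Its second probe set gave 158.1, 268.7, 286.1 and 265.1 against 88.2, and a dimmer one 35.9 to 79.5 against 47.4. The thyroid hormone binding protein gene Crym read 19.4 after 1 shock at 2 h, 10.9 after 1 shock at 6 h, 66.8 after 7 shocks at 2 h and 74.9 after 7 shocks at 6 h, against 29.4 in sham. The 7-shock arrays were the highest for Crym and for the brightest Vtn probe set. The second Vtn probe set read 109.7 after 7 shocks at 2 h and 80.7 after 7 shocks at 6 h. It read 104.3 after 1 shock at 2 h. Over 1 shock, 7 shocks stood at 1.78 for Crym at 2 h and 2.77 at 6 h, on a single probe set. Itm2a, a membrane protein gene of endothelium and other cells, read 60.8 after 1 shock at 2 h against 139.8 in sham, and stood at -1.33 on its other probe set.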
